A study of Mus musculus and Homo sapiens with 18 samples.

Results

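The collagen genes were read out in 3 systems in which the gene for QKI (*Qk* in the mouse), an RNA-binding protein that acts on splicing and mRNA stability, had been deleted. They are the genes whose symbol is Col, a number, a and a number, in upper case for human genes, with antisense and pseudogene rows left out. Of the 98517 gene symbols in the 3 count tables, 45 met this rule. Each table listed 44 of them, among 46882 genes for the lens, 54838 for NLPCs and 60880 for HLE-B3 cells, with *Col6a4* only in the mouse tables and *COL21A1* only in the human table.

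The study asked what the loss of QKI does to lens cells, and RNA-seq counts per gene were analysed for 18 libraries, 3 in each of 6 groups. Lenses were collected at P17-19 from 3 Ctrl mice (Nestin-CreERT2; QkL/+) and 3 *Qk*-iCKO mice (Nestin-CreERT2; QkL/L) of C57BL/6 background. With these genotypes, mice of both groups carried the Cre transgene. They received tamoxifen at P7 and P8, so that a Ctrl mouse could also lose exon 2, the exon between the *loxP* sites, from its single floxed *Qk* allele. The paper also counts Nestin-CreERT2; Qk+/+ and QkL/L littermates as controls, without saying which genotype the sequenced lenses had. Cre was expressed from the *Nestin* promoter, which the study used for its activity in lens epithelial and neural stem cells, and cells that never used this promoter keep *Qk*. NLPCs are lens progenitor-like cells that were differentiated in culture from neural stem cells, which the authors isolated from P1 brains of Nestin-CreERT2; QkL/L mice. They were given Noggin for 6 days and then bFGF, BMP4 and BMP7 for 12 days, and are labelled wild type (WT) and *Qk*-/-. Deletion was induced with 100 nM 4-hydroxytamoxifen, and whether the WT cells also received it is not given in the sources used here. HLE-B3 is an immortalized human lens epithelial cell line, of which WT cells were compared with *QKI* KO cells made by CRISPR/Cas9 with a lentiviral plasmid and enriched by puromycin, in 20% FBS, and whether the KO cells are a pool or 1 clone is not given in the sources used here. For NLPCs and HLE-B3 cells nothing says that libraries came from separate cultures, so their p-values measure only the spread between these libraries, which may be technical.

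Collagens are secreted proteins of 3 chains wound into a helix, and their classes differ in what they build. Type IV chains (*Col4a1* to *Col4a6*) form the network of basement membranes, of which the lens capsule is one of the thickest, and the capsule is laid down by the lens cells themselves. The multiplexins XV and XVIII are proteoglycan collagens of basement membranes, and the C-terminal end of the type XVIII chain is endostatin. Fibrillar collagens (types I, II, III, V, XI, XXIV and XXVII) build the banded fibrils of stroma, cartilage and vitreous, and FACIT collagens such as type IX sit on the surface of those fibrils. Type VI forms beaded filaments next to basement membranes, type VIII forms the hexagonal net of Descemet's membrane in the cornea, type VII anchors epithelia, and types XIII, XVII, XXIII and XXV span the cell membrane. The 6 type IV genes lie in head-to-head pairs, each pair with a shared start region.

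The promoter sequences of 5 mouse genes are shown because the mouse comparisons turn on them or on their class: *Col4a4* for a head-to-head pair of capsule chains, *Col4a5* and *Col11a1* as genes with lower counts in the NLPC libraries labelled *Qk*-/-, *Col5a1* as a gene with higher counts in both mouse comparisons, and *Col18a1* as the capsule multiplexin. They come from RefSeq (GRCm38.p6), from windows of 250 bases before to 50 bases after the gene's start, and bases of annotated exons were removed. The stretches are 5′ to 3′ on the strand of the gene, at chr1:82586850-82586920 (minus strand), chrX:141475169-141475384 (plus), chr2:27886175-27886424 (plus), chr10:77166549-77166780 (minus) and chr3:114030290-114030539 (plus). Capitals mark GGGCGG (the GC box) and CCAAT (the CCAAT box), or their reverse complements.
*Col4a4*: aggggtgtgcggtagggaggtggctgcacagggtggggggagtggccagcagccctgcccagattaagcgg
*Col4a5*: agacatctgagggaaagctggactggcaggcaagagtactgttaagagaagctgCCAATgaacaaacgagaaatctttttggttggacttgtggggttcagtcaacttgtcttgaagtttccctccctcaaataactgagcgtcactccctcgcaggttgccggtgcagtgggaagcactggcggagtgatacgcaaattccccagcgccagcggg
*Col5a1*: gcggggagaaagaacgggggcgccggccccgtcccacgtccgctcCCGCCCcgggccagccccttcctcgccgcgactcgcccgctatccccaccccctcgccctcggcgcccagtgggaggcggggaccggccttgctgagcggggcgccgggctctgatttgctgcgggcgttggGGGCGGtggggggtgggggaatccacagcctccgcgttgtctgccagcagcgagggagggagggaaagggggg
*Col18a1*: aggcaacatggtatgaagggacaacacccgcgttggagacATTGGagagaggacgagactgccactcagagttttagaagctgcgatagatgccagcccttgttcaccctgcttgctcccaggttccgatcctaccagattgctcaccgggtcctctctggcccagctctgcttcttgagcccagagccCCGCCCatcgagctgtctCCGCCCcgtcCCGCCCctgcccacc
*Col11a1*: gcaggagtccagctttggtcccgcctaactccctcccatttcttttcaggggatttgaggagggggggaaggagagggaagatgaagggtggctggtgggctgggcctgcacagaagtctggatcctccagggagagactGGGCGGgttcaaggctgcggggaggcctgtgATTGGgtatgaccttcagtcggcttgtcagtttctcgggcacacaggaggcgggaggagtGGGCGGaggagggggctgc
The 71 bases between the starts of *Col4a4* and *Col4a3* hold neither motif. Of the 44 mouse collagen genes, 35 had a window, and none of the sequence of *Col4a1* and *Col4a2* was left outside exons. GGGCGG stood on either strand in 22 of the 35 whole windows (62.9%) and in 35.9% of all 27025 windows of the same length. CCAAT stood in 34.3% against 37.9%, and TATAAA in 14.3% against 14.2%. The core of the QKI response element known from RNA, searched as ACTAAC and ACTAAT on both strands of the DNA, stood in 5.71% against 6.01% and in 8.57% against 6.04%. The ends of different motifs may overlap, and a match is a description of the letters, not a binding site.

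Library totals were 10319320 to 16425331 counts in the lens, 28154202 to 68243360 in NLPCs and 69190864 to 81384471 in HLE-B3 cells. All levels are CPM, counts scaled to the size of the library, with TMM factors of 0.888 to 0.962 in 5 lenses and of 1.48 in *Qk*-iCKO lens 1. Gene counts cover every exon of *Qk*, of which exon 2 is a small part, so in the mouse they do not check the deletion. *Qk* had 120.4, 116 and 127 CPM in Ctrl and 100.5, 86.9 and 106 CPM in *Qk*-iCKO lenses (adjusted p = 0.2, edgeR), and 2674, 2444 and 2541 CPM in WT and 3599, 3088 and 3510.3 CPM in the NLPC libraries labelled *Qk*-/-, where it was higher (adjusted p = 0.027, edgeR). *QKI* fell from 263, 262 and 257 CPM in WT to 100.2, 105 and 103 CPM in *QKI* KO cells (adjusted p = 1.85e-11, edgeR). The crystallins and *Mip* were abundant in the lens, whereas *Cryaa* was at most 0.615 CPM in any NLPC library and at 0 in every HLE-B3 library. *Cryaa* does not stand for all lens genes, as the 13 lens markers listed summed to 194 to 196 CPM in WT NLPCs. They summed to 623 to 732 CPM in WT HLE-B3 cells, where *CRYAA* and *CRYBA1* were at 0 in every library. The paper describes NLPCs as high in αB-crystallin by immunostaining. NLPCs held *Pax6* at 80.2 to 88.0 CPM, and HLE-B3 cells held *PAX6* at 127 to 155 CPM.

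Type IV collagen dominated the lens. Per kilobase of the principal coding transcript, *Col4a1* stood at 356 ± 38.1 CPM per kb (SD, n = 3) in Ctrl lenses and *Col4a2* at 157 ± 15.8 CPM per kb, followed by *Col4a5* at 36.3 ± 2.08, *Col4a6* at 21.8 ± 1.68, *Col4a3* at 19.8 ± 2.76 and *Col4a4* at 14.3 ± 1.7 CPM per kb. The ranges of *Col4a6* (20.1 to 23.4) and *Col4a3* (17.9 to 23) overlapped, and those of the other neighbours among these 6 did not. *Col9a1* at 8.04 ± 7.1 and *Col18a1* at 5.97 ± 4.32 CPM per kb came next, and their ranges overlapped. The 6 type IV genes made up 91.6 to 98.1% of the summed collagen level per kb in Ctrl lenses and 63.7 to 93.1% in *Qk*-iCKO lenses (exact permutation test, two-sided, p = 0.2, where 3 lenses against 3 cannot give less than 0.10). The share of the fibrillar genes was 0.636 to 1.69% against 2.68 to 6.87% (exact permutation test, p = 0.1), without overlap between the groups. *Qk*-iCKO lenses 1 and 2 had type IV shares of 67.8 and 63.7%, and *Qk*-iCKO lens 3 had 93.1%, within the range of the Ctrl lenses.

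**Figure D1:**
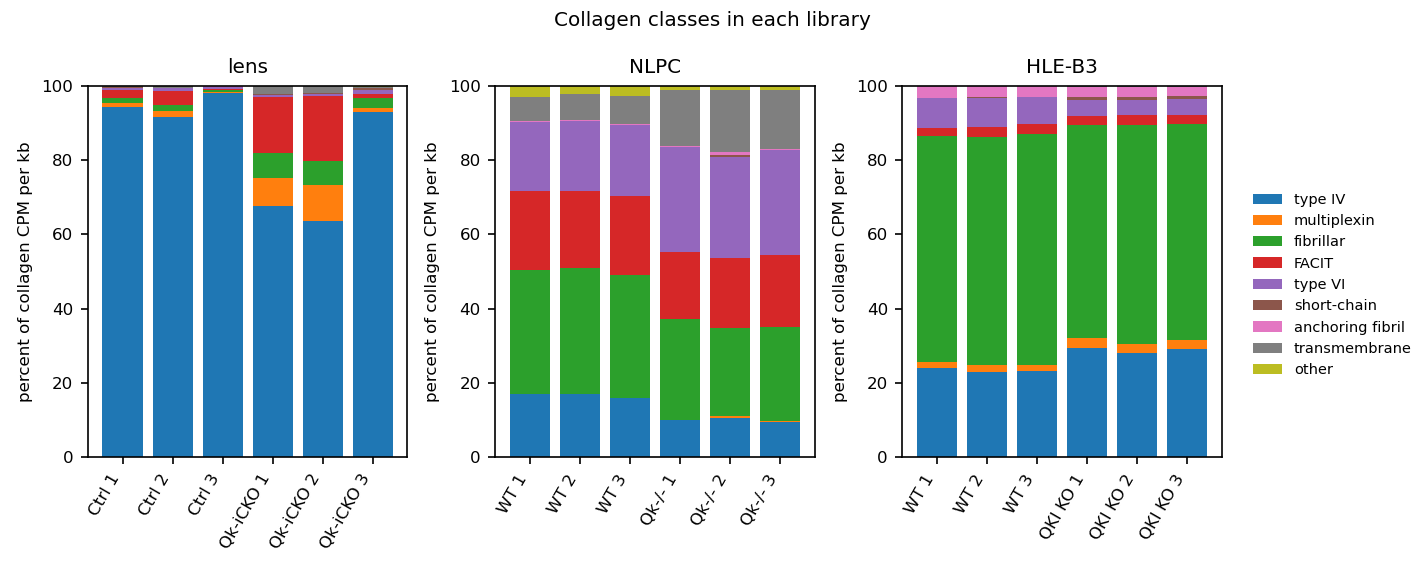
Share of each collagen class in the summed level of all collagen genes (percent of CPM per kb of coding transcript), 1 stacked bar per library, controls left and deleted libraries right in each panel. In the lens type IV fills 91.6 to 98.1% of the Ctrl bars, in NLPCs no class passes 33.9%, and in HLE-B3 cells the fibrillar genes fill 57.4 to 62.2% of every bar.

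Of the 44 collagen genes, 29 had enough counts to be tested in the lens, and the other 15 had at most 61 counts and 3.74 CPM in any lens. Higher counts in *Qk*-iCKO lenses were called for 5 of the 29 (17.2%, against 8.38% of all 12201 genes tested) and lower counts for 1 (3.45% against 3.88%) at an adjusted p under 0.05 (edgeR's quasi-likelihood test with Benjamini-Hochberg adjustment over all genes tested). The median log2 fold change (*Qk*-iCKO over Ctrl) of the 29 was 1.14, and that of all genes tested was 0.0064. It was −0.078 over the 6 type IV genes and 1.69 over the 9 fibrillar genes tested. Of the 29 genes, 10 passed the low-count filter (0.810 CPM in 3 lenses) only with the lenses of the group in which they were higher, among them *Col3a1*, *Col5a2* and *Col6a2* of the 5 called, so that these counts and medians are a description of the genes that passed. Without 1 lens, 1, 2 or 2 collagen genes were called higher (Ctrl 1, 2 or 3 left out) and 2, 3 or 8 (*Qk*-iCKO 1, 2 or 3 left out), beside 437, 525 or 501 and 873, 971 or 1298 of all genes, and *Col4a1* was called lower only without *Qk*-iCKO lens 1 or 3. Scaling to total counts alone called 768 of all genes higher and 116 lower, beside 1023 and 473 with TMM, and 4 collagen genes higher and 1 lower. In bulk tissue, fewer cells of a type and less RNA per cell cannot be told apart.

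*Col4a1* (chr8:11198423-11312826, GRCm38), the main chain of the capsule network, was at 2511, 2067 and 2495 CPM in Ctrl lenses and 974, 1216 and 1458 CPM in *Qk*-iCKO lenses. The 3 *Qk*-iCKO values were all under the lowest Ctrl value, and the gene was called lower (log2 fold change −0.95, SE 0.22, adjusted p = 0.0333, edgeR's quasi-likelihood test). With Ctrl lens 1, 2 or 3 or *Qk*-iCKO lens 2 left out, the adjusted p from edgeR rose past 0.05, up to 0.13, while the log2 fold change stayed between −1.11 and −0.82. *Col4a2* (chr8:11312805-11449287), the partner chain of *Col4a1*, was at 1084, 896 and 1059 CPM in Ctrl lenses and 823, 655 and 794 CPM in *Qk*-iCKO lenses. Its groups did not overlap either, and the difference did not pass (log2 fold change −0.42, SE 0.19, adjusted p = 0.19, edgeR). Per length, the level of *Col4a1* was 2.25 to 2.3 times that of *Col4a2* in Ctrl lenses and 1.15 to 1.81 times in *Qk*-iCKO lenses, lowest in lens 1 (exact permutation test, two-sided, p = 0.10, the smallest that 3 against 3 allows).

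The 4 other type IV chains showed no called difference. *Col4a3* (chr1:82586921-82722059) had 197, 159 and 153 against 212, 138 and 156 CPM in Ctrl and *Qk*-iCKO lenses, and *Col4a4* (chr1:82448423-82586849) had 126, 150.2 and 159 against 162, 137 and 120.0 CPM. The groups of both genes overlapped, with log2 fold changes of −0.0084 (SE 0.21) and −0.053 (SE 0.17). *Col4a5* (chrX:141475385-141689234) had 249, 222 and 240.4 against 227, 234 and 201 CPM, which also overlapped (log2 fold change −0.10, SE 0.15). *Col4a6* (chrX:141165403-141474076) had 156, 133 and 145 against 184, 184 and 162 CPM, with every *Qk*-iCKO lens above every Ctrl lens and no call (log2 fold change 0.29, SE 0.14, adjusted p = 0.24, edgeR). Both of the last genes are X-linked, and 4 Y-linked genes summed to 0, 0 and 3 counts in the Ctrl lenses and 1, 1051 and 930 counts in the *Qk*-iCKO lenses. By these counts the sexes were not balanced between the lens groups, which concerns every gene compared in the lens. The part of sex in the values of *Col4a5*, *Col4a6* and the autosomal collagen genes was not tested. Scaling to total counts alone turned the log2 fold changes of *Col4a3*, *Col4a4* and *Col4a5* to 0.34, 0.27 and 0.19.

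**Figure D2:**
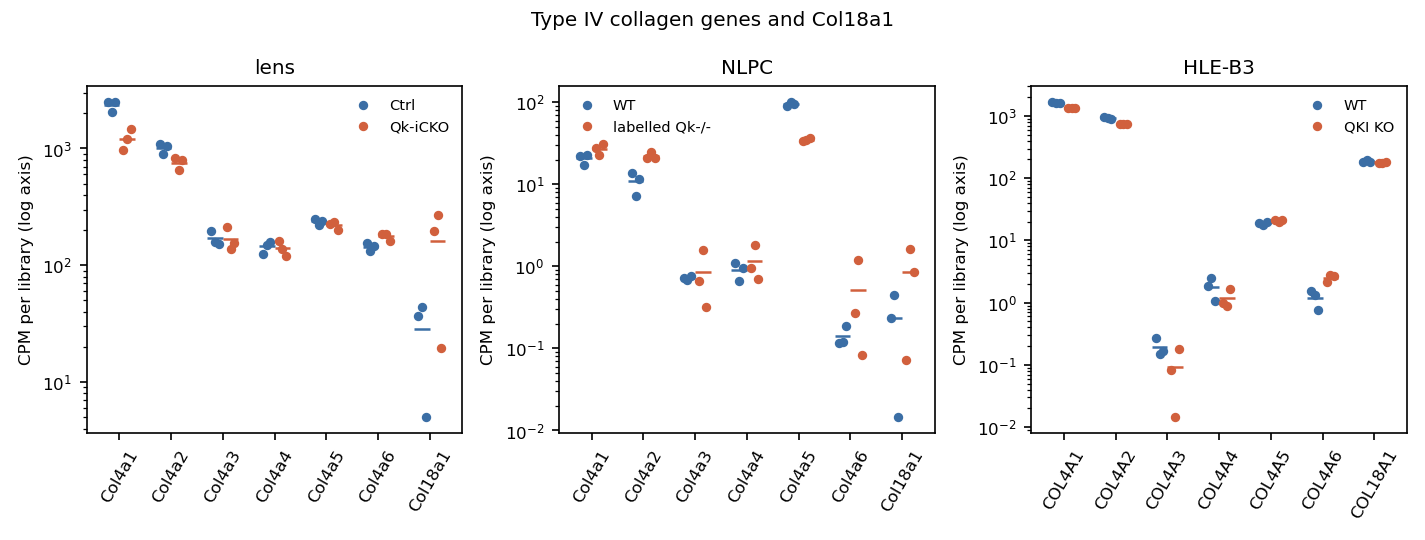
Level of the 6 type IV genes and *Col18a1* in each library (CPM, log axis), with 1 point per library, controls in blue, deleted libraries in orange and the group mean as a bar. In the lens the points of *Col4a1* separate, *Col4a3* to *Col4a5* overlap, and *Col18a1* has 1 low lens in each group, whereas *Col4a5* separates downward in NLPCs.

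Fibrillar genes made up 4 of the 5 collagen genes that were called higher in the lens (44.4% of the 9 fibrillar genes tested, beside 8.38% of all genes). *Col5a2* (chr1:45374321-45503282), a chain of the type V collagen that starts fibrils, was at 0.414, 0.57 and 0.343 CPM in Ctrl lenses and 2.15, 2.03 and 2.93 CPM in *Qk*-iCKO lenses. These rest on 5, 8 and 5 counts and on 35, 21 and 29 counts, and no Ctrl lens reached the level of the low-count filter, which the gene passed through the *Qk*-iCKO lenses alone. Having entered the test through its high group, it had to differ, and its log2 fold change of 2.39 (SE 0.35, adjusted p = 0.00628, edgeR) is a description. *Col5a1* (chr2:27886425-28039514), the other main type V chain, was at 9.45, 13.3 and 5.22 CPM in Ctrl lenses and 30.4, 41.4 and 18.1 CPM in *Qk*-iCKO lenses, again without overlap (log2 fold change 1.69, SE 0.40, adjusted p = 0.0341, edgeR). It was lowest in lens 3 of both groups, and without Ctrl lens 1 or 3 or *Qk*-iCKO lens 1 or 2 its adjusted p from edgeR passed 0.05, up to 0.12. *Col27a1* (chr4:63214004-63334991), a fibrillar collagen known from cartilage, was at 12, 16.3 and 11.5 CPM in Ctrl lenses and 22.9, 27.1 and 48.2 CPM in *Qk*-iCKO lenses (log2 fold change 1.30, SE 0.30, adjusted p = 0.0321, edgeR). The highest value was that of *Qk*-iCKO lens 3, and leaving out any Ctrl lens ended the call (adjusted p up to 0.13, edgeR).

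*Col3a1* (chr1:45311538-45349706), a chain of distensible tissues, was at 0.829, 1.14 and 0.892 CPM in Ctrl lenses and 2.02, 1.94 and 2.42 CPM in *Qk*-iCKO lenses (log2 fold change 1.14, SE 0.29, adjusted p = 0.044, edgeR), with 1 of the 3 Ctrl lenses at the level of the filter. Its call was lost with any of the 6 lenses left out, at adjusted p values of 0.082 to 0.17 from edgeR, and in the fit with a replicate block (adjusted p = 0.0624, edgeR). The fifth gene was *Col6a2* (chr10:76595762-76623630), a chain of the beaded filaments, at 0.746, 0.856 and 1.37 CPM in Ctrl lenses and 2.52, 3.0 and 2.42 CPM in *Qk*-iCKO lenses (log2 fold change 1.40, SE 0.33, adjusted p = 0.0326, edgeR), with 2 of the 3 Ctrl lenses at the level of the filter. It kept its call only without Ctrl lens 3 and reached an adjusted p of 0.13 (edgeR) otherwise. *Col6a3*, the third chain of the same protein, was at 23.5, 24 and 23.3 against 23.7, 18.8 and 32.1 CPM, without a difference beyond the spread (log2 fold change 0.075, SE 0.20).

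A second set of collagen genes was called only when lenses of the same replicate number were compared with each other (a replicate block in the fit). The sample titles give the numbers without saying what lenses of the same number share, so the block is an alternative fit. *Col18a1* (chr10:77052178-77166548), the multiplexin of the capsule, was at 37.1, 43.6 and 5.01 CPM in Ctrl lenses and 198, 269 and 19.6 CPM in *Qk*-iCKO lenses. The groups overlapped, and the difference was not called (log2 fold change 2.51, SE 1.0, adjusted p = 0.15, edgeR). With the replicate number as a block, its log2 fold change was 2.36 and its adjusted p was 0.00056 (edgeR), and without *Qk*-iCKO lens 3 it passed without the block as well (adjusted p = 0.0457, edgeR). With the block, 12 of the 29 collagen genes were called higher (41.4%, against 11.4% of all genes tested) and *Col4a1* was still called lower (adjusted p = 0.0499, edgeR; 3.45% of the collagen genes against 4.84% of all genes). *Col3a1* was not among them, and 5 of the 12 (*Col2a1*, *Col5a2*, *Col6a2*, *Col9a2* and *Col11a1*) passed the filter only with the *Qk*-iCKO lenses. The 8 genes called only with the block were *Col1a2*, *Col2a1*, *Col9a1*, *Col9a2*, *Col9a3*, *Col11a1*, *Col18a1* and *Col23a1*, and each was lowest in lens 3 of both groups. In Ctrl lenses 1 and 2 they were 1.96 to 48.5 times as high as in Ctrl lens 3. With both lenses numbered 3 left out and no block, an alternative chosen after seeing the data, 10 collagen genes were called higher and *Col4a1* was not called. Of all 12649 genes tested there, 735 were called higher and 129 lower, beside 1023 and 473 with all 6 lenses.

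The 3 chains of type IX collagen, a fibril-associated collagen of vitreous and cartilage, moved together in this way. *Col9a1* was at 34.1, 56.3 and 2.13 against 179.9, 213 and 7.07 CPM in Ctrl and *Qk*-iCKO lenses. *Col9a2* was at 7.71, 9.98 and 0.206 against 63, 77 and 2.93 CPM. *Col9a3* was at 9.36, 11.8 and 1.3 against 40.6, 61.9 and 5.25 CPM. Within each number the *Qk*-iCKO lens was the higher one for all 3 genes, and with the block their log2 fold changes were 2.06, 3.06 and 2.21 (adjusted p = 0.000939, 0.000247 and 0.000484, edgeR). *Col2a1*, which makes the fibrils that type IX covers, was at 12.6, 13 and 0.686 against 46.2, 59 and 3.23 CPM, and *Col11a1*, which is built into the same fibrils, was at 3.15, 3.49 and 0.412 against 13.9, 25.4 and 1.72 CPM. *Col23a1*, a transmembrane collagen, was at 9.28, 13.9 and 1.3 against 53.9, 52.1 and 3.33 CPM. For *Col1a2*, a chain of type I collagen, the values were 14.8, 9.84 and 5.01 against 102, 73.3 and 5.76 CPM, with a large gap between the groups in lenses 1 and 2 and a small one in lens 3. Its partner chain *Col1a1* was at 1.33, 0.784 and 0.343 against 1.9, 2.42 and 1.72 CPM, without overlap between the groups and not called (log2 fold change 1.31, SE 0.47, adjusted p = 0.12, edgeR). Per length *Col1a2* reached 11.3 ± 9.2 CPM per kb in *Qk*-iCKO lenses (SD, n = 3) and *Col1a1* 0.339 ± 0.0615 CPM per kb.

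**Figure D3:**
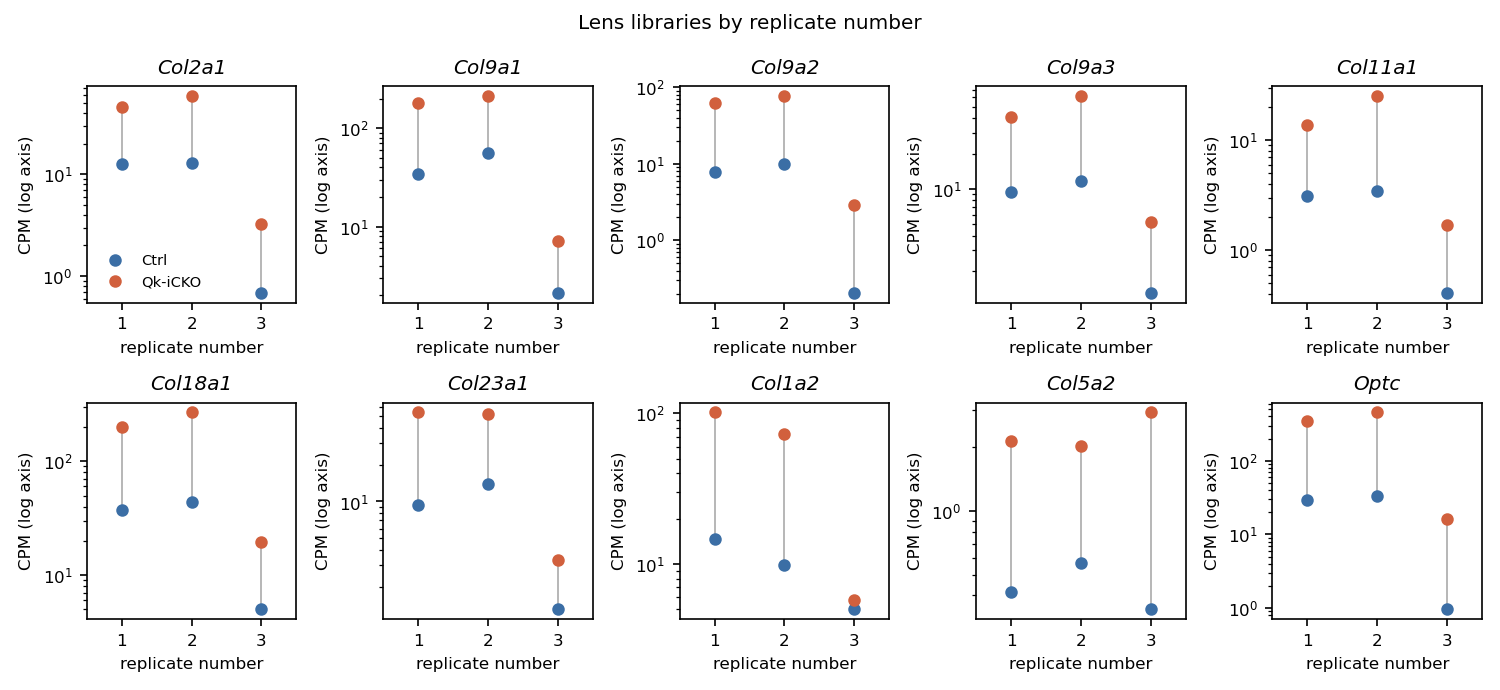
Level of 9 collagen genes and of *Optc* in each lens (CPM, log axis) by replicate number, with Ctrl in blue, *Qk*-iCKO in orange and a line joining lenses of the same number. In the panels other than that of *Col5a2* the lenses numbered 3 are the lowest of both groups, and the *Qk*-iCKO point lies above the Ctrl point of the same number in every panel.

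The other 8 collagen genes tested were low in the lens and were not called with or without the block. *Col8a1* and *Col8a2*, the chains of the Descemet's membrane net, were at 1.82, 1.35 and 0.755 against 2.27, 2.13 and 3.03 CPM and 4.72, 2.21 and 3.02 against 4.36, 6.68 and 8.08 CPM, apart for *Col8a1* and overlapping for *Col8a2*. *Col6a1*, the partner of *Col6a2*, was at 0.829, 2.0 and 0.755 against 2.7, 2.9 and 2.02 CPM, and *Col16a1* was at 1.82, 2.14 and 2.4 against 4.48, 3.0 and 3.13 CPM, both without overlap (log2 fold change 1.08, SE 0.43, and 0.74, SE 0.27). *Col7a1*, *Col11a2*, *Col20a1* and *Col26a1* overlapped, with log2 fold changes of 0.20, −0.37, 0.54 and 1.19. The 15 genes with too few counts were *Col5a3*, *Col6a4* to *Col6a6*, *Col10a1*, *Col12a1* to *Col15a1*, *Col17a1*, *Col19a1*, *Col22a1*, *Col24a1*, *Col25a1* and *Col28a1*, the last at 0 counts in all 6 lenses.

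Markers of other cell types also differed between lenses, in some lists with the low values in lens 3 and in others without them. Summed over *Optc*, *Zic1* and *Wfdc1*, which are known from the ciliary epithelium and were chosen after their values were seen, the Ctrl lenses held 36.8, 42 and 1.1 CPM and the *Qk*-iCKO lenses 372, 489 and 17.6 CPM, lowest in lens 3 of both groups. Of the fibroblast and mesenchyme list, 1 of the 4 genes tested (of 8) was called higher, namely *Postn*, at 0.912, 0.57 and 0.686 against 48.6, 41.6 and 46.5 CPM, and the summed level of the list was 65.1 to 125 CPM in Ctrl and 165 to 498 CPM in *Qk*-iCKO lenses. Of its other genes, *Fbln1* was at 25.8, 28.4 and 1.99 against 175, 150.2 and 6.76 CPM, *Fbn1* at 36.1, 33.4 and 2.75 against 206, 221 and 18 CPM and *Pdgfra* at 62.1, 51.5 and 59.6 against 66.4, 68.3 and 93.8 CPM, while *Dcn*, *Lum*, *Thy1* and *Twist1* reached at most 1.41, 0.143, 0.552 and 0.307 CPM in any lens. *Fbln1* and *Fbn1* were lowest in lens 3 of both groups. *Postn* passed the low-count filter (0.810 CPM in 3 lenses) only with the *Qk*-iCKO lenses, so its call is a description. All 6 macrophage and leukocyte genes tested (of 7) were called higher, with sums of 1.21 to 2.4 CPM against 68.9 to 87.9 CPM, highest in lens 3 of both groups. The 7 genes together held 1.21 CPM in Ctrl lens 2, while the filter asked 0.810 CPM of each gene in 3 lenses. Most of them thus passed only through the *Qk*-iCKO lenses, and their calls are a description. Of the endothelial list, 2 of 5 genes tested (of 8) were higher, with sums of 4.64 to 9.82 against 16 to 26.4 CPM, and of the pericyte and smooth muscle list 1 of 4 tested (of 6), with sums of 53.4 to 98.3 against 50.1 to 125 CPM. Pigment cell genes reached 6.13, 6.92 and 3.5 against 137, 21.8 and 6.87 CPM and retinal genes 63.5, 414 and 2.06 against 98.1, 58.9 and 11.7 CPM. Lens genes, mostly crystallins, took 32.7 to 35.2% of the counts in Ctrl and 16.2 to 29.6% in *Qk*-iCKO lenses, with *Mip* called lower among 12 genes tested (of 13). The part of other cell types in the collagen values was not tested.

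Among the 53 partner genes of collagen synthesis and basement membranes, 43 were tested in the lens, 6 were called higher (14.0%, beside 8.38% of all genes) and 1 lower (2.33%, beside 3.88%), and their median log2 fold change was 0.37. Without 1 lens 2 to 11 were higher and 0 or 1 lower, the 11 without *Qk*-iCKO lens 3 and the 2 without Ctrl lens 1, beside 437 to 1298 and 144 to 479 of all genes. The 6 higher genes served modification, cleavage, crosslinking and the basement membrane. *P4hb*, the disulfide isomerase subunit of prolyl 4-hydroxylase, was at 51.3, 54.8 and 52 against 109, 93.2 and 106 CPM (log2 fold change 0.97), and *P3h2*, the prolyl 3-hydroxylase of basement membrane collagen, was at 4.47, 4.63 and 5.42 against 23.9, 10.6 and 16.7 CPM (1.82). *Plod1*, a lysyl hydroxylase, had a log2 fold change of 0.70, *Loxl2*, which crosslinks type IV collagen, of 1.14, and *Lama5*, a laminin chain, of 0.95. *Tll1*, a propeptide protease, was at 0.166, 0.428 and 0.137 against 2.95, 4.45 and 3.33 CPM, which in Ctrl lenses rests on 2, 6 and 2 counts, so that it passed the filter through the *Qk*-iCKO lenses alone. *Lama2*, another laminin chain, was at 48, 34.9 and 43.5 against 25.7, 24 and 30.2 CPM and was called lower (−0.66, adjusted p = 0.0444, edgeR). In the fit with the replicate block 12 were higher (27.9%, beside 11.4% of all genes) and 2 lower (4.65%, beside 4.84%). Of the 12, *Creb3l1* and *Tll1* passed the filter only through the *Qk*-iCKO lenses.

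In NLPCs the collagen genes were few in counts and mixed in class. Per length, *Col11a1* led the WT libraries at 27.9 ± 1.67 CPM per kb (SD, n = 3), before *Col6a1* at 19.5 ± 1.6, *Col16a1*, a FACIT, at 19.4 ± 1.63, *Col4a5* at 14.7 ± 0.914 and *Col23a1* at 7.9 ± 1.21 CPM per kb. The ranges of *Col6a1* (18.1 to 21.2) and *Col16a1* (18 to 21.2) overlapped. Collagen genes held 0.0638 to 0.0762% of the counts of the WT libraries and 0.0714 to 0.0833% of those labelled *Qk*-/-. The type IV share of the collagen level per kb was 16 to 17% in WT and 9.47 to 10.5% in the libraries labelled *Qk*-/-, the fibrillar share 33.1 to 33.9% against 23.7 to 27.3%, the type VI share 18.6 to 19.2% against 27.1 to 28.3% and the transmembrane share 6.42 to 7.62% against 15.1 to 16.8%. The groups did not overlap in any of these 4 shares (exact permutation test, two-sided, p = 0.1 for each).

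Of 41 collagen genes tested, 7 were called higher (17.1%, against 4.74% of all 20371 genes tested) and 5 lower (12.2% against 5.96%) in the libraries labelled *Qk*-/- (edgeR's quasi-likelihood test with Benjamini-Hochberg adjustment over all genes tested). The median log2 fold change of the 41 was 1.02 and that of all genes 0.040. Of the 41, 13 passed the low-count filter only with the libraries of the group in which they were higher, and no called gene was among them. In the fit with a replicate block 6 were higher (14.6%, against 4.8% of all genes) and 4 lower (9.76% against 5.11%). The number called higher was 3 to 4 without any 1 library other than *Qk*-/- library 2 and 9 without that one, beside 344 to 595 and 1728 of all genes, and the number called lower was 1 to 3 and 5, beside 337 to 827 and 2069. Of the 41 genes, 21 had a WT mean under 1 CPM. Of these 21, 19 (90.5%) were highest in *Qk*-/- library 2, the shallowest of the 6, as were 58.4% of all 6284 tested genes at that level, and 0 of the 21 were called by edgeR (1 had an unadjusted p under 0.05, and DESeq2 called 1, *Col6a3*). The 3 genes not tested, *Col8a2*, *Col15a1* and *Col26a1*, had at most 62 counts in any library.

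*Col4a5* (chrX:141475385-141689234, GRCm38), a capsule chain that is also found in many other basement membranes, was at 89.9, 102 and 96.8 CPM in WT NLPCs and 33.6, 34.6 and 36.9 CPM in the NLPC libraries labelled *Qk*-/-. The groups were far apart and the gene was called lower (log2 fold change −1.46, SE 0.093, adjusted p = 0.000242, edgeR), which held with each library left out. Its head-to-head neighbour *Col4a6* was barely counted, at 0.117, 0.118 and 0.189 against 0.269, 1.2 and 0.0843 CPM. *Col4a2* was at 14, 7.21 and 11.8 CPM in WT NLPCs and 20.8, 25.1 and 21 CPM in the NLPC libraries labelled *Qk*-/- and was called higher (log2 fold change 1.02, SE 0.23, adjusted p = 0.0292, edgeR). Without WT library 3 or *Qk*-/- library 1 or 3 its adjusted p from edgeR passed 0.05, up to 0.13. *Col4a1* was at 22.1, 17.4 and 22.7 against 27.8, 23 and 31.1 CPM, with the groups apart by a small step and no call (log2 fold change 0.40, SE 0.16, adjusted p = 0.16, edgeR), and it passed without *Qk*-/- library 2 (adjusted p = 0.0251, edgeR). Per length, *Col4a1* was at 1.54 to 2.35 times the level of *Col4a2* in WT and 0.891 to 1.44 times in the libraries labelled *Qk*-/- (exact permutation test, p = 0.10). *Col4a3*, *Col4a4* and *Col18a1* stayed under 2 CPM in every library and overlapped between the groups.

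Fibrillar genes went both ways. *Col11a1* (chr3:114030540-114220718), the most abundant collagen gene per length, was at 203, 211 and 228 CPM in WT NLPCs and 139, 122 and 152 CPM in the NLPC libraries labelled *Qk*-/-, lower in every library labelled *Qk*-/- (log2 fold change −0.64, SE 0.10, adjusted p = 0.00737, edgeR). Without WT library 3 its adjusted p was 0.0711 (edgeR). *Col5a1*, by contrast, was at 19.1, 15.6 and 20.7 CPM in WT NLPCs and 46.6, 42.6 and 44.3 CPM in the NLPC libraries labelled *Qk*-/- and was called higher (log2 fold change 1.27, SE 0.13, adjusted p = 0.0011, edgeR) with any library left out. *Col5a2*, the chain that joins *Col5a1* in type V collagen, was at 3.07, 5.46 and 4.26 CPM in WT NLPCs and 1.33, 2.29 and 1.03 CPM in the NLPC libraries labelled *Qk*-/- and was called lower (log2 fold change −1.47, SE 0.38, adjusted p = 0.0464, edgeR), but only without *Qk*-/- library 2 did the call hold when a library was left out, and the adjusted p reached 0.18 (edgeR). The 8 other fibrillar genes were not called, among them *Col27a1* at 55.3, 46.8 and 47.9 against 55.8, 35.3 and 58.3 CPM.

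Of the type VI genes 2 of 6 tested were called higher (33.3%), and of the transmembrane genes 1 of 4 (25.0%), beside 4.74% of all genes. *Col6a1* (chr10:76708792-76726168) was at 74.4, 78 and 87.1 CPM in WT NLPCs and 124, 113 and 144 CPM in the NLPC libraries labelled *Qk*-/- (log2 fold change 0.67, SE 0.12, adjusted p = 0.00996, edgeR), and *Col6a2*, its neighbour on the chromosome, was at 12.8, 9.43 and 11.8 against 22.1, 22.5 and 22 CPM (log2 fold change 0.97, SE 0.14, adjusted p = 0.00469, edgeR). Both separated completely, *Col6a2* was called with any library left out, and *Col6a1* lost its call without any 1 of the 3 WT libraries (adjusted p up to 0.0875, edgeR). *Col23a1* (chr11:51289920-51583918), a shed transmembrane collagen, was at 39.9, 41.7 and 52.5 CPM in WT NLPCs and 106, 111 and 127 CPM in the NLPC libraries labelled *Qk*-/-, 2.56 times as high in the mean (log2 fold change 1.36, SE 0.13, adjusted p = 0.000814, edgeR), and this call also held with any library left out.

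*Col28a1* (chr6:7997808-8192617), a collagen of glia around peripheral nerve, was at 14.3, 10.7 and 13.9 CPM in WT NLPCs and 5.26, 4.65 and 6.86 CPM in the NLPC libraries labelled *Qk*-/-, less in every library labelled *Qk*-/- (log2 fold change −1.21, SE 0.20, adjusted p = 0.00803, edgeR). The call was lost without WT library 1 or 3 or *Qk*-/- library 1 (adjusted p up to 0.0677, edgeR). Of the FACIT genes, *Col20a1* was at 3.71, 2.55 and 3.22 against 6.94, 5.36 and 7.59 CPM (log2 fold change 1.07, adjusted p = 0.0254, edgeR), *Col9a3* at 2.92, 2.29 and 2.88 against 4.68, 7.89 and 5.36 CPM (1.14, adjusted p = 0.0309, edgeR) and *Col9a2* at 7.74, 7.99 and 7.57 against 5.04, 4.65 and 4.2 CPM (−0.75, adjusted p = 0.0244, edgeR). Each of these 3 kept its call only without *Qk*-/- library 2 when a library was left out, with adjusted p values of up to 0.14, 0.14 and 0.13 (edgeR). With the replicate number as a block *Col9a3* and *Col9a2* were not called (adjusted p = 0.0645 and 0.0585, edgeR). *Col16a1* did not differ beyond its spread, at 99, 93.5 and 110.2 against 89.3, 82.6 and 115 CPM (log2 fold change −0.08, SE 0.14).

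Among the genes that were not called, *Col7a1* was at 2.76, 2.08 and 2.72 against 3.05, 7.41 and 5.14 CPM, with the groups apart (log2 fold change 1.04, SE 0.34, adjusted p = 0.0979, edgeR). *Col5a3*, a further type V chain, was at 9.15, 7.96 and 11.6 against 12.4, 9.67 and 17.9 CPM, and *Col9a1*, the third type IX chain, was at 3.57, 5.84 and 4.34 against 3.88, 4.68 and 3.51 CPM, and the groups of both overlapped. *Col12a1* was at 1.01, 1.42 and 1.83 against 0.646, 0.581 and 0.59 CPM, lower in every library labelled *Qk*-/- and not called (log2 fold change −1.23, SE 0.48, adjusted p = 0.15, edgeR). *Col1a1* and *Col1a2* were close to 0 in WT and highest in *Qk*-/- library 2, at 0.263, 1.02 and 0.713 against 1.74, 2.9 and 0.54 CPM and 0, 0.26 and 0.116 against 0.269, 4.1 and 0.169 CPM.

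The neural stem cell and astrocyte list was among the marker lists that differed between the groups in NLPCs. Its summed level was 5332 to 5902 CPM in WT and 2864 to 3442 CPM in the libraries labelled *Qk*-/-, and *Sox2*, *Gfap* and *Slc1a3* were called lower among its 6 genes. The neuron list summed to 1247 to 1320.2 against 1538 to 1668 CPM, with 2 of 5 genes called higher, and the fibroblast and mesenchyme list to 113 to 118 against 63.2 to 87.5 CPM, with 1 of 5 tested called lower. The lens list summed to 194 to 196 against 144 to 163 CPM, with 1 of 6 tested called lower, and the pericyte and smooth muscle list to 33.4 to 36.1 against 18 to 24.6 CPM, with 1 of 4 tested called lower. Their part in the collagen values was not tested.

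Of the 49 partner genes tested, 5 were called higher (10.2%, beside 4.74% of all genes) and 6 lower (12.2%, beside 5.96%), with a median log2 fold change of 0.11. Without 1 library, 0 to 8 were higher and 3 to 11 lower, the most in each case without *Qk*-/- library 2, beside 344 to 1728 and 337 to 2069 of all genes. The lower ones included 3 basement membrane genes, *Sparc*, which binds collagen in the matrix and aids its export, at 1379, 1436 and 1327 against 779, 621 and 760.2 CPM, *Nid2*, which links laminin to type IV collagen, at 27.2, 22.2 and 23.6 against 11.2, 7.31 and 9.71 CPM, and the proteoglycan gene *Agrn* at 392, 293 and 395 against 219.9, 185 and 239 CPM. *Pxdn*, whose product crosslinks the type IV network, was at 227, 201 and 214 against 134, 126 and 124 CPM (log2 fold change −0.74, adjusted p = 0.0016, edgeR). Collagen receptors went both ways. *Ddr1* was at 210.4, 208 and 253 against 128, 75.7 and 131 CPM and lower (−1.0), while *Ddr2* (0.43), *Itga1* (0.72) and *Itga11* (3.16, from 0.19, 0.0709 and 0.102 CPM, with 1 of the 3 WT libraries at the level of the filter) were higher. The propeptide proteases *Adamts2* (1.41) and *Adamts14* (1.19) were higher as well.

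In HLE-B3 cells fibrillar genes led the collagen profile. In WT cells *COL1A1* stood at 582 ± 8.08 CPM per kb (SD, n = 3), followed by *COL4A1* at 249 ± 8.43, *COL5A2* at 231 ± 6.73, *COL4A2* at 146 ± 4.64 and *COL5A1* at 109 ± 2.79 CPM per kb. The ranges of neighbours in this order did not overlap. *COL1A2*, the partner of *COL1A1* in type I collagen, was at 30.8 ± 0.233 CPM per kb. Collagen genes took 1.11 to 1.12% of the counts of WT cells and 0.706 to 0.764% of those of *QKI* KO cells, and their summed level was 1686 to 1723 against 1094 to 1154 CPM per kb (exact permutation test, two-sided, p = 0.1). Type IV genes made up 23 to 23.9% of it in WT and 28 to 29.4% in *QKI* KO cells, fibrillar genes 60.7 to 62.2% against 57.4 to 59.1% and type VI genes 7.19 to 8.03% against 4.02 to 4.34% (exact permutation test, p = 0.1 for each).

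Of 32 collagen genes tested, 17 were called lower in *QKI* KO cells (53.1%, against 16.3% of all 19049 genes tested) and 6 higher, *COL21A1* among them (18.8% against 17.0%; edgeR's quasi-likelihood test with Benjamini-Hochberg adjustment over all genes tested). Their median log2 fold change was −0.33, beside −0.020 over all genes. The 12 genes not tested had at most 32 counts in any library. When any 1 library was left out, 22 of the 23 calls held. The exception was *COL11A2*, a fibrillar gene at 1.54, 2.26 and 1.84 against 0.928, 1.01 and 0.956 CPM (−0.96, adjusted p = 0.0167, edgeR), which was not called without WT library 2 or *QKI* KO library 1 or 3 (adjusted p up to 0.0863, edgeR).

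**Figure D4:**
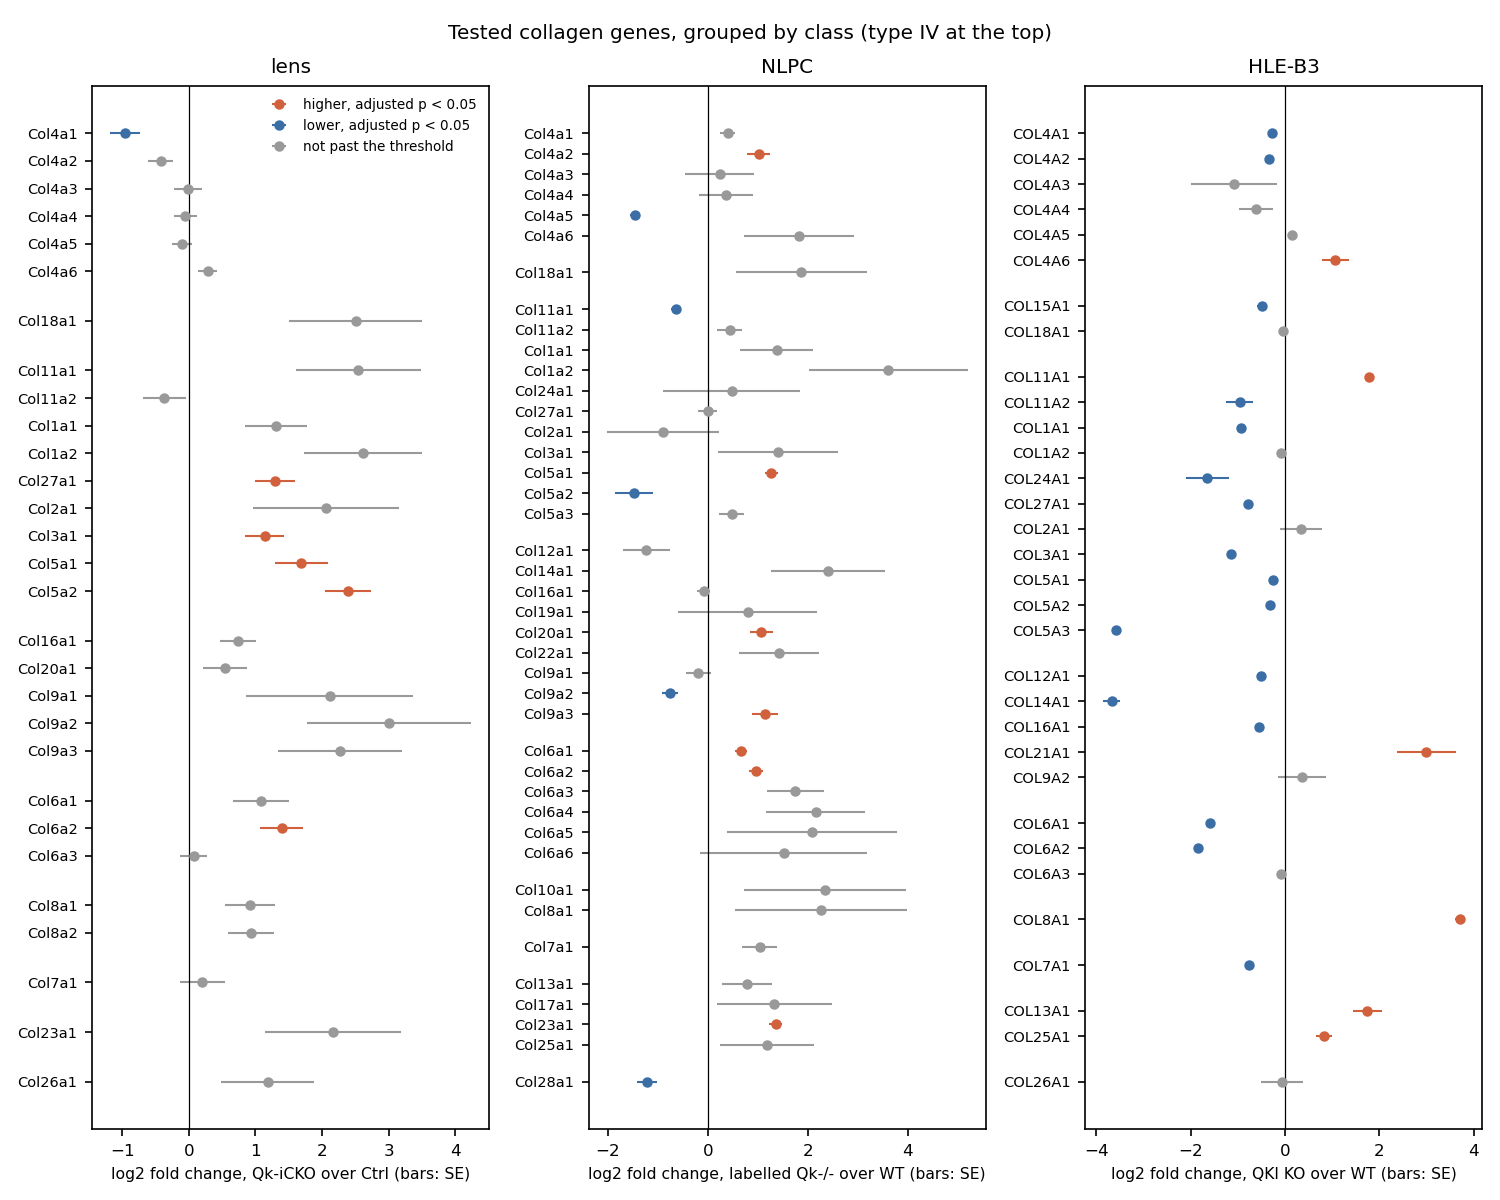
Log2 fold change of every tested collagen gene (deleted over control, edgeR), 1 panel per system and 1 row per gene, with the SE as a bar and type IV genes on top. Orange and blue points passed an adjusted p of 0.05, and the panels hold 5 orange and 1 blue point in the lens, 7 and 5 in NLPCs, and 6 and 17 in HLE-B3 cells.

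The fibrillar class held 8 of the lower genes among 11 (72.7%, beside 16.3% of all genes) and 1 higher gene (9.09%, beside 17.0%). Its median log2 fold change was −0.78. *COL5A3* (chr19:10070237-10121180, GRCh37), the third chain of type V collagen, was at 163, 157 and 154 CPM in WT HLE-B3 cells and 11.8, 15.4 and 12.6 CPM in *QKI* KO cells. The groups lay far apart (log2 fold change −3.58, SE 0.089, adjusted p = 5.08e-14, edgeR). The other type V chains fell far less. *COL5A1* was at 892, 935 and 929.7 against 751, 801 and 754 CPM (−0.26) and *COL5A2* at 1618, 1586 and 1528 against 1272, 1238 and 1286 CPM (−0.32), both without overlap between the groups and both called lower. *COL1A1* (chr17:48261462-48278993) was at 3399, 3439 and 3494 CPM in WT HLE-B3 cells and 1630.2, 1958 and 1807 CPM in *QKI* KO cells (log2 fold change −0.94, SE 0.056, adjusted p = 2.03e-09, edgeR). *COL1A2*, its partner chain, was at 155, 156 and 157 against 149, 143 and 148 CPM and was not called although its groups lay apart (−0.09, adjusted p = 0.23, edgeR).

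*COL3A1* (chr2:189839099-189877472) was at 325, 301 and 308 CPM in WT HLE-B3 cells and 139.6, 136 and 146 CPM in *QKI* KO cells (log2 fold change −1.15, SE 0.056, adjusted p = 1.62e-10, edgeR). *COL27A1* was at 60.5, 59.3 and 56.6 against 38.1, 33.1 and 31.6 CPM (−0.78) and *COL24A1* at 1.1, 1.55 and 1.59 against 0.573, 0.159 and 0.614 CPM (−1.65), and both were called lower. The 1 fibrillar gene called higher was *COL11A1* (chr1:103342023-103574428), which was at 33.4, 30.5 and 31.7 CPM in WT HLE-B3 cells and 111, 108 and 109 CPM in *QKI* KO cells. It rose in every *QKI* KO library (log2 fold change 1.78, SE 0.063, adjusted p = 4.46e-12, edgeR).

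Of the 6 type IV genes tested, 2 were called lower (33.3%, beside 16.3% of all genes) and 1 higher (16.7%, beside 17.0%). *COL4A1* (chr13:110801310-110959504) was at 1694, 1591 and 1607 CPM in WT HLE-B3 cells and 1328, 1348 and 1362 CPM in *QKI* KO cells (log2 fold change −0.28, SE 0.045, adjusted p = 0.000127, edgeR). *COL4A2* (chr13:110958159-111165556) was at 969, 937 and 909 CPM in WT HLE-B3 cells and 744, 730.5 and 750.2 CPM in *QKI* KO cells (log2 fold change −0.34, SE 0.047, adjusted p = 2.74e-05, edgeR). The groups of both genes were apart. The genes overlap at their starts on opposite strands, and whether the counting used strand is not given in the sources used here. The ratio of their levels per length was 1.67 to 1.74 in WT and 1.76 to 1.82 in *QKI* KO cells. Both lie on chromosome 13, where the 371 tested genes with a position had a median log2 fold change of −0.30. The 50 tested genes nearest to *COL4A1* and *COL4A2* had a median of −0.48, and less that median the log2 fold changes of the pair were 0.20 and 0.14, above 0. For the other collagen genes the median of the 50 neighbours was between −0.24 and 0.41. Of the 17 genes called lower, 15 were also below their neighbours, and all 6 called higher were above theirs. A log2 fold change outside the range of the neighbour medians had to fall on its own side of them, so these counts are a description.

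**Figure D5:**
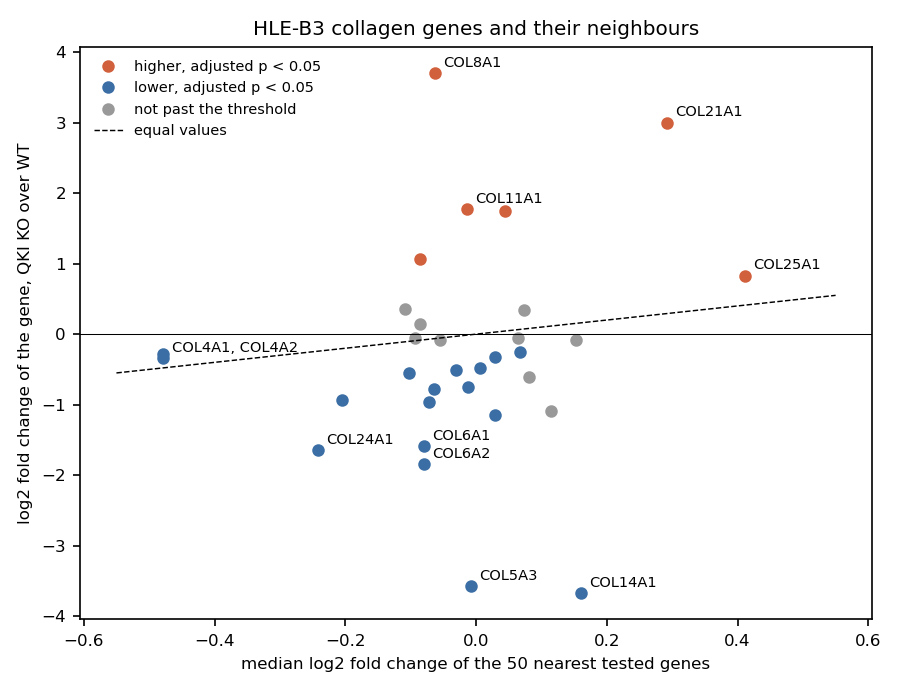
Log2 fold change of each tested collagen gene in HLE-B3 cells (*QKI* KO over WT, vertical axis) against the median of the 50 tested genes nearest to it on the chromosome (horizontal axis), with a dashed line at equal values. *COL4A1* and *COL4A2* lie above the line at a neighbour median of −0.48, and *COL5A3*, *COL14A1* and *COL8A1* lie far from it at neighbour medians of −0.0075, 0.16 and −0.063.

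*COL4A6* was at 1.53, 1.33 and 0.766 against 2.14, 2.82 and 2.63 CPM and was called higher (1.06, adjusted p = 0.00858, edgeR). *COL4A5* was at 19, 17.6 and 20.1 against 21, 20.1 and 21.6 CPM, with the groups apart by a small margin and no call (0.14, adjusted p = 0.24, edgeR). *COL4A3* and *COL4A4* stayed under 3 CPM in every library and overlapped. *COL18A1* (chr21:46825080-46933634) was at 185, 193 and 179.5 CPM in WT HLE-B3 cells and 178, 177 and 183 CPM in *QKI* KO cells, with overlap between the groups (log2 fold change −0.052, SE 0.054, adjusted p = 0.52, edgeR). The other multiplexin, *COL15A1*, was at 12.9, 12.1 and 11.6 against 8.54, 9.08 and 8.61 CPM and was called lower (−0.48).

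The neighbouring genes *COL6A1* (chr21:47401684-47424964) and *COL6A2* (chr21:47518026-47552762) fell together. *COL6A1* was at 279, 274 and 242 CPM in WT HLE-B3 cells and 86.4, 87.4 and 90.1 CPM in *QKI* KO cells (log2 fold change −1.59, SE 0.063, adjusted p = 1.76e-11, edgeR), and *COL6A2* was at 209, 211 and 185 against 58.1, 53.5 and 57 CPM (log2 fold change −1.84, SE 0.067, adjusted p = 5.89e-12, edgeR). *COL6A3*, the third chain of type VI collagen, which lies on another chromosome, was at 110.3, 109 and 105 against 106, 106 and 94.5 CPM and overlapped (−0.08, SE 0.062). *COL18A1*, on the same chromosome as *COL6A1* and *COL6A2*, overlapped as well. The FACIT gene *COL14A1*, which binds fibrils of soft tissue, was at 9.07, 11.3 and 9.7 CPM in WT HLE-B3 cells and 0.832, 0.869 and 0.655 CPM in *QKI* KO cells (log2 fold change −3.67, SE 0.18, adjusted p = 2.22e-10, edgeR). *COL12A1* (366, 391 and 419.6 against 269, 300.1 and 259 CPM; −0.51) and *COL16A1* (33.5, 37.2 and 36.9 against 22.2, 26.8 and 24.3 CPM; −0.55) were lower by less, as was *COL7A1*, the anchoring fibril chain, at 519, 478 and 467 against 286, 299.7 and 282 CPM (−0.75).

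*COL8A1* (chr3:99357319-99518070), a chain of the Descemet's membrane network, was the collagen gene with the largest log2 fold change above 0. It was at 3.45, 3.77 and 3.86 CPM in WT HLE-B3 cells and 45.7, 48.7 and 49.8 CPM in *QKI* KO cells, or 13 times the WT mean (log2 fold change 3.70, SE 0.091, adjusted p = 5.08e-14, edgeR). The FACIT gene *COL21A1* was at 0.122, 0.11 and 0.0557 against 0.437, 0.724 and 1.19 CPM (3.0, SE 0.63). In WT cells it had 10, 8 and 4 counts, and it passed the low-count filter through the *QKI* KO libraries alone, so that its call is a description. Both transmembrane genes tested were higher (beside 17.0% of all genes), *COL13A1* at 0.624, 0.74 and 0.502 against 2.28, 1.82 and 2.16 CPM (1.74) and *COL25A1* at 3.49, 2.85 and 3.89 against 5.66, 6.95 and 5.6 CPM (0.83). The neighbours of *COL25A1* had a median of 0.41. A list of 3 corneal genes summed to 10.4 to 14.9 CPM in WT and 42.3 to 48.3 CPM in *QKI* KO cells (1 tested, called higher), the fibroblast and mesenchyme list to 1228 to 1334 against 1131 to 1164 CPM (3 of 6 tested higher, 2 lower), and the pericyte and smooth muscle list to 1599.9 to 1720.3 against 2431 to 2806 CPM (2 of 5 tested higher, 2 lower). The lens list summed to 623 to 732 against 1003 to 1156 CPM (1 of 5 tested higher, 2 lower), the neural stem cell and astrocyte list to 121 to 132 against 57.8 to 61.8 CPM (2 of 3 tested lower) and the neuron list to 34 to 37.8 against 17.1 to 21.3 CPM (4 of 4 tested lower). The part of these lists in the collagen values was not tested.

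Of the 52 partner genes tested in HLE-B3 cells, 27 were lower (51.9%, beside 16.3% of all genes) and 11 higher (21.2%, beside 17.0%), with a median log2 fold change of −0.25. In the basement membrane group 9 of 12 were lower (75.0%, beside 16.3% of all genes). *NID2* was at 28.4, 29.6 and 31.3 against 5.64, 4.24 and 2.88 CPM (−2.80, adjusted p = 2e-09, edgeR) and *SPARC* at 1614, 1590.1 and 1487 against 968, 895 and 982 CPM (−0.72). Genes that cut procollagen included *BMP1*, the C-proteinase, at 115, 115 and 104 against 53.1, 48.8 and 53.1 CPM (−1.11), its enhancer *PCOLCE* (−1.50) and the N-proteinase *ADAMTS14* at 4.46, 4.83 and 3.69 against 0.382, 0.319 and 0.246 CPM (−3.77), all lower, and *TLL1*, which was higher at 0.612, 1.0 and 1.2 against 6.86, 5.91 and 5.91 CPM (2.74). *P3H2* (−1.22) and the crosslinking enzymes *LOXL1* (−0.89) and *LOXL2* (−0.66) were lower, and the collagen receptor *ITGA11* was higher (0.63).

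The deletion effect was compared between the mouse systems as an interaction in a joint fit of 16675 genes, which held 38 collagen genes. The log2 fold change was higher in NLPCs than in the lens for 3 of them (3.21% of all genes) and lower for 3 (5.33% of all genes; edgeR's quasi-likelihood test with Benjamini-Hochberg adjustment over all genes tested). Scaling to total counts alone gave 156 of all genes higher in NLPCs and 861 lower, beside 535 and 888 with TMM, and 1 collagen gene higher and 4 lower. For *Col4a1* and *Col4a2* it was higher in NLPCs, with differences of 1.45 (SE 0.28, adjusted p = 0.00672, edgeR) and 1.55 (SE 0.31, adjusted p = 0.00953, edgeR), the second of which was not called when libraries were scaled to total counts alone (adjusted p = 0.11, edgeR). For *Col4a5* it was lower in NLPCs, with a difference of −1.26 (SE 0.17, adjusted p = 0.001, edgeR). *Col5a2* differed by −3.78 (SE 0.61, adjusted p = 0.00271, edgeR), where its lens values rest on 5, 8 and 5 counts in Ctrl. *Col5a1*, called higher in both, had a difference of −0.32 (SE 0.42), and *Col6a2*, also higher in both, of −0.33 (SE 0.32), and neither difference passed. With the replicate block 7 collagen genes were lower in NLPCs (6.15% of all genes) and 3 higher (3.75%). *Col9a2*, *Col11a1*, *Col9a1*, *Col5a3* and *Col2a1* were called only with it (adjusted p = 3e-05, 0.000171, 0.000747, 0.00967 and 0.0468, edgeR), and *Col12a1*, at a difference of −2.88, only without it (adjusted p = 0.0494, and 0.0666 with the block, edgeR). In the lens, *Col5a3* had 4, 1 and 1 counts in Ctrl and too few to be tested there alone. *Col5a2*, *Col6a2*, *Col9a2*, *Col11a1* and *Col2a1* passed the filter in the lens only with the *Qk*-iCKO lenses, so their differences are a description. When a lens was left out, the lens call of *Col6a2* held only without Ctrl lens 3. In HLE-B3 cells the human genes *COL5A1*, *COL5A2* and *COL6A2* were all called lower, at log2 fold changes of −0.26, −0.32 and −1.84, and the difference between human and mouse was not tested.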

How the data were processed

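The authors aligned stranded paired-end RNA-seq reads to mm10 or hg19 and deposited raw counts per gene for each library. The submitters' processing notes list STAR 2.6.1b, HISAT2 2.0.4, HTSeq 0.11.0 and featureCounts without saying which made which table, and the strand setting is not given in the sources used here. All sample columns matched the labels. Counts were tested in each system with edgeR 4.0.16 (R 4.3.3, quasi-likelihood test, TMM, filterByExpr with a minimum count of 10 and a total of 15) and adjusted by Benjamini-Hochberg over all genes tested, with calls at an adjusted p under 0.05. DESeq2 1.42.0, other scalings and filters, a replicate block and left-out libraries were alternatives. The scripts were tested on simulated data.

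Levels between genes were compared per kilobase of the principal coding transcript (GENCODE vM21 on GRCm38, v44lift37 on GRCh37), in place of the merged exons first planned. Deviations of same-numbered libraries from their group means correlated at 0.23, 0.13 and 0.52 in the lens and 0.12, 0.32 and 0.15 in NLPCs, each over 0.1, so a replicate block was fitted as an alternative. Different-numbered libraries correlated at −0.39 to 0.28 in the lens and −0.30 to 0.23 in NLPCs. Ctrl lens 2 with *Qk*-iCKO lens 1 (0.28) passed the same-numbered values of lenses 1 and 2. WT NLPC library 1 with *Qk*-/- library 3 (0.23) passed those of libraries 1 and 3. The numbers come from the sample titles, which name no litter or batch, so a pairing of these samples is not established. Named genes were every type IV gene and *Col18a1*, each collagen gene called in that system, the 5 highest per length in controls, and up to 10 called partner genes, and other members were named after their values were seen. The members and lists were chosen with earlier results of these data known.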

Additional observations from a re-analysis of the deposited data

Results flagged for a closer look

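For 6 collagen genes the deletion effect differed between the mouse systems by the interaction test (edgeR, difference of the log2 fold changes, NLPCs minus lens), with 3 lenses or libraries in each group. *Col5a2* differed by −3.78 (adjusted p = 0.00271, edgeR), with adjusted p values from 1.58e-06 to 0.00413 over its alternatives. Its Ctrl lenses had 5, 8 and 5 counts, under the level of the low-count filter, which in the lens it passed through the *Qk*-iCKO lenses alone. The difference of *Col5a2* is therefore a description. *Col4a5* differed by −1.26 (adjusted p = 0.001, edgeR; 1.32e-15 to 0.00539). *Col4a1* differed by 1.45 (adjusted p = 0.00672, edgeR; 6.18e-07 to 0.0285) and *Col4a2* by 1.55 (adjusted p = 0.00953, edgeR; 1.05e-05 to 0.11, the last with total counts alone).

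*Col6a3* differed by 1.73 (adjusted p = 0.0492, edgeR; 0.00592 to 0.14), a call that was lost with total counts alone, without *Qk*-iCKO lens 1 (adjusted p = 0.0801, edgeR) and without NLPC *Qk*-/- library 2 (adjusted p = 0.0528, edgeR). *Col12a1* differed by −2.88 (adjusted p = 0.0494, edgeR; 0.00453 to 0.074), a call that was lost with the replicate block (adjusted p = 0.0666, edgeR), with RLE size factors (adjusted p = 0.053, edgeR) and without *Qk*-iCKO lens 1 (adjusted p = 0.074, edgeR). It stood at 0.746, 0.285 and 0.137 CPM in Ctrl and 1.04, 2.03 and 0.808 CPM in *Qk*-iCKO lenses and did not pass the filter in the lens alone.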

How the results depend on the processing

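Collagen genes called higher in the lens numbered 5, but 12 with the replicate block, 16 with every gene of at least 1 count and 3 with at least 10 counts in every sample, and called partner genes 6 higher and 1 lower, but 12 and 2 with the block, 12 and 2 with at least 1 count, 11 and 2 by DESeq2, and 0 lower with total counts alone. Of all genes tested in the lens, 1023 were called higher and 473 lower, but 1391 and 591 with the block and 1904 and 617 with at least 1 count. These numbers were 610 and 406 with at least 10 counts in every sample, 1419 and 644 by DESeq2, and 768 and 116 with total counts alone. Partner genes higher were 5 in NLPCs (8 with at least 10 counts in every sample, 9 by DESeq2) and 11 in HLE-B3 cells (7 with total counts alone). Beside them, 965 of all genes were higher in NLPCs (1262 and 2032 in the same alternatives) and 3229 in HLE-B3 cells (2648). Of the lens to NLPC differences, 3 were lower in NLPCs (7 with the block, 5 by DESeq2) and 3 higher (1 with total counts alone), beside 888 (1026 and 1287) and 535 (156) of all genes. The cause of these shifts was not tested.

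With libraries left out, singly or, as chosen after seeing the data, by number, lens collagen genes higher ranged from 1 to 12 and lower from 0 to 1, lens partner genes from 2 to 11 and 0 to 2, NLPC collagen genes from 3 to 11 and 1 to 5, NLPC partner genes from 0 to 9 and 3 to 13, HLE-B3 collagen genes from 6 to 7 and 16 to 17, HLE-B3 partner genes from 8 to 10 and 25 to 27, and the lens to NLPC differences, refitted only without *Qk*-iCKO lens 1 and without NLPC *Qk*-/- library 2, stood at 2 higher and 3 lower. Over all genes the numbers higher and lower ranged from 437 to 1649 and 129 to 618 in the lens and from 344 to 2693 and 337 to 3154 in NLPCs. They ranged from 2609 to 3285 and 2325 to 2902 in HLE-B3 cells, and the lens to NLPC differences stood at 519 and 565 higher and 704 and 927 lower.

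Total counts alone turned lens *Col4a3*, *Col4a4* and *Col4a5* to 0.34, 0.27 and 0.19 and the type IV median to 0.23, at least 10 counts in every sample turned lens *Col4a3* to 0.014, the block turned NLPC *Col4a3* to −0.044, and taking off the neighbours turned *COL4A1* and *COL4A2* to 0.20 and 0.14 and the HLE-B3 type IV median to 0.17. With libraries left out, lens *Col4a3* ranged from −0.21 to 0.11, lens *Col4a4* from −0.27 to 0.12, NLPC *Col4a3* from −0.66 to 0.61, NLPC *Col4a4* from −0.30 to 0.63 and NLPC *Col16a1* from −0.25 to 0.019. Within these ranges, lens *Col4a4* was at −0.17 to 0.045 with a *Qk*-iCKO lens left out, and without *Qk*-/- library 2 NLPC *Col4a3* and *Col4a4* were at −0.55 and −0.11 (*Col4a4* up to 0.60 without *Qk*-/- library 3). With the block, lens *Col4a3* was at 0.069 without replicate 2, and without replicate 1 NLPC *Col4a3* was at −0.040 and 4 NLPC collagen genes were called higher, beside 649 of all genes. The median of all genes moved to 0.29 with total counts alone, 0.12 with at least 1 count and 0.15 by DESeq2 in the lens, to 0.20 with at least 1 count and 0.25 by DESeq2 in NLPCs, and to −0.34 with total counts alone and 0.20 by DESeq2 for the lens to NLPC difference. RLE size factors left the 6 counts of called collagen genes as they were. In HLE-B3 cells same-numbered libraries correlated at 0.061, 0.057 and −0.049, and the replicate block called 6 collagen genes higher and 17 lower, as without it. No multiplexin was left in NLPCs with at least 10 counts in every sample. Genes with few counts limit what could be detected, since 15 collagen genes in the lens, 3 in NLPCs and 12 in HLE-B3 cells had too few to be tested.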
